A study of Mus musculus with 9 samples.

Results

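The lipid droplet coat and lipase genes are 10 genes whose proteins cover, enlarge, form or empty the fat droplets of a cell. They were chosen by symbol, as named genes above 0 in at least 1 liver, and 10 of 10 were found among the 23183 symbols of the mouse liver tables. The choice was made with earlier results of these data known, so counts over these genes are not independent of the data. The 10 genes are the perilipins Plin2, Plin4 and Plin5, the CIDE genes Cidea, Cideb and Cidec, the FIT genes Fitm1 and Fitm2, the lipase gene Pnpla2, and G0s2, whose protein inhibits that lipase. RNA was measured by RNA-Seq in the livers of 9 male C57BL/6J mice, an inbred strain much used in diet studies, with 1 library per mouse and 3 mice per group. ND mice (numbered 6, 7 and 9) ate a normal diet with 14% fat, and HFD mice (1, 2 and 3) ate a high-fat diet with 60% fat, each for 10 weeks. PRF 50 mice (3, 9 and 10) ate the same high-fat diet for 10 weeks and were given PRF by mouth at 50 mg/kg per day during the last 5 weeks. PRF is the hexane fraction of a leaf extract of Jinkyool (Citrus sunki), rich in polymethoxyflavones, a group of citrus flavonoids, and was given in 0.5% carboxymethyl cellulose. Livers were taken at postnatal day 100 after 8 h of fasting. Mouse numbers hold within a group only, so mouse 3 of HFD and mouse 3 of PRF 50 are different animals, and only 1 dose of PRF was sequenced.

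Values are log2(FPKM + 1), where FPKM is fragments per kilobase of transcript scaled to the depth of the library, computed and normalized between mice by the authors. Levels of different genes are compared on the FPKM scale, which accounts for transcript length. Read counts were not used, so the counting error of a value is unknown. With HFD mouse 1 set to 1, the depths estimated from the steps between low values ran from 0.963 to 1.60. HFD mouse 2 stood apart in its highest value, about 22 for the small RNA gene Rnu6, which was at 0 in the other 8 mice and was looked at after its value was seen, while the highest value of the other mice was between 14.10 and 14.64. In ND mouse 9, too, it was that of a small RNA gene, Snord49a, at 0 in the other 8 mice. An exact 0 is given as listed at 0, since Alb (albumin), a main product of hepatocytes, is listed at 0 in all 9 livers. The liver label was checked with other hepatocyte genes. Of 11 hepatocyte markers looked up, 10 were found by symbol (Tf was not) and 9 were above 0, the most abundant by its mean over the mice was Apoa1, and their summed levels lay between 23373 and 33946 FPKM.

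Cells store triglyceride in droplets with a fat core and a surface of phospholipids and proteins. Perilipins coat that surface and limit the access of lipases, CIDE proteins join droplets so that lipid passes from small to large ones, and FIT proteins act in the membrane of the endoplasmic reticulum (ER) where droplets form. The lipase ATGL, the product of Pnpla2, takes the first fatty acid off triglyceride, helped by the co-activator ABHD5 and held back by G0S2. In fatty liver, droplets accumulate in hepatocytes, and PLIN2 is a common marker of them.

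The bases before the transcription start are shown for Plin2, Plin4, Plin5, Cidec, Fitm1 and G0s2, the 6 members that fell in PRF 50 vs. HFD. The sequences are from RefSeq on GRCm38.p6, which held 9 of the 10 members with 11 start sites (Cidea is named only). Each is the longest stretch within 250 bases before the start that lies outside the annotated exons of any gene (for G0s2 it ends upstream at an exon of Lamb3), printed 5′ to 3′ on the strand of the gene, which is plus for Fitm1 and minus for the others. Capitals mark letters matching a motif for nuclear receptors, to which the PPAR family of lipid sensors belongs: AGGTCA in Plin5, and in Plin2 2 copies of AGGTCA in the same direction with 1 base between them, on the reverse strand and with at most 2 letters different. The stretches of Plin4, Cidec, Fitm1 and G0s2 hold neither. The positions are chr4:86670061-86670309 (Plin2), chr17:56109804-56110032 (Plin4), chr17:56117597-56117798 (Plin5), chr6:113435761-113436010 (Cidec, the outer of its start sites), chr14:55575424-55575616 (Fitm1) and chr1:193273218-193273337 (G0s2).
Plin2: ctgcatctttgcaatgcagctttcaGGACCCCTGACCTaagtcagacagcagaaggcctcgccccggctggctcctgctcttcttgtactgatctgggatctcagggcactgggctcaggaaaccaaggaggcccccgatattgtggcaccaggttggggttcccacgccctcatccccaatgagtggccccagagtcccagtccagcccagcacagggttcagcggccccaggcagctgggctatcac
Plin4: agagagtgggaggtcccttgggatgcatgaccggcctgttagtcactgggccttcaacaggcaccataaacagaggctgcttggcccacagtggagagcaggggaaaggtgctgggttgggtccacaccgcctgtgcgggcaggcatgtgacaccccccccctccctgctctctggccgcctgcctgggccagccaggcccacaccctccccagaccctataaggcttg
Plin5: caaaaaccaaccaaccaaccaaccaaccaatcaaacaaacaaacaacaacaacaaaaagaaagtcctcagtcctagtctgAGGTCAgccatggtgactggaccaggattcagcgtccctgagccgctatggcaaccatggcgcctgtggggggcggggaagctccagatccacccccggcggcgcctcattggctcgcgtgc
Cidec: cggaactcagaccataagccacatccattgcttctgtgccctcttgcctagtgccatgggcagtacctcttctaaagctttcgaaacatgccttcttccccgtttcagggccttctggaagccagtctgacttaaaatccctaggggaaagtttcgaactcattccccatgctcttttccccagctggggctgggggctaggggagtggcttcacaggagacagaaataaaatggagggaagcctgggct
Fitm1: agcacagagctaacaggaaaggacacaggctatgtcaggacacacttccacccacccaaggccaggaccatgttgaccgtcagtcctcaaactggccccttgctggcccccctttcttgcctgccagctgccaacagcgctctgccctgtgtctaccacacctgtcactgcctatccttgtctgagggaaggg
G0s2: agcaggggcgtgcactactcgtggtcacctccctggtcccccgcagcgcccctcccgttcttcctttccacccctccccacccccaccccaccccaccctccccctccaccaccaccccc

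In 250 bases before the start, on both strands, AGGTCA was found in 2 members, Plin2 and Plin5, and in 14% of all 32851 start sites. In Plin2 it lies on the reverse strand at positions -218 to -213, and in Plin5 at -170 to -165. The direct repeat, 2 copies of AGGTCA in the same direction with 1 base between, was found exactly in 0 members and in 0.0335% of all start sites. With at most 2 of its AGGTCA letters different it was found in Plin2, at -225 to -213 and overlapping the AGGTCA there, and in 3.24% of all start sites. TATAAA was found in Cideb and in 12.4% of all start sites, and CACGTG in 0 members and in 6.02%. A match of letters is a description and not a site at which a factor was measured.

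By the mean FPKM over the 9 mice, the order of the levels was Plin2 (263), Cideb (232), G0s2 (176), Fitm1 (42.9), Pnpla2 (30.8), Fitm2 (15.9), Plin5 (13.8), Cidec (4.04), Plin4 (1.43) and Cidea (0.393). Several neighbours in this order changed places between mice. Plin2 was above Cideb in 4 of 9 mice, Cideb above G0s2 in 7, Fitm1 above Pnpla2 in 7, Fitm2 above Plin5 in 6 and Cidec above Plin4 in 8, and each other gene was above the next in 9 of 9. The 10 genes together summed to 838, 667 and 641 FPKM in ND mice 6, 7 and 9, to 872, 1297 and 1203 FPKM in HFD mice 1, 2 and 3, and to 485, 560 and 460 FPKM in PRF 50 mice 3, 9 and 10. The 3 groups did not overlap in this sum. Plin2 made up 31.4% to 39.4% of it in HFD mice and 26.7% to 31.1% in PRF 50 mice, while Cideb made up 19.1% to 32.0% and 35.5% to 43.1%.

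**Figure D1:**
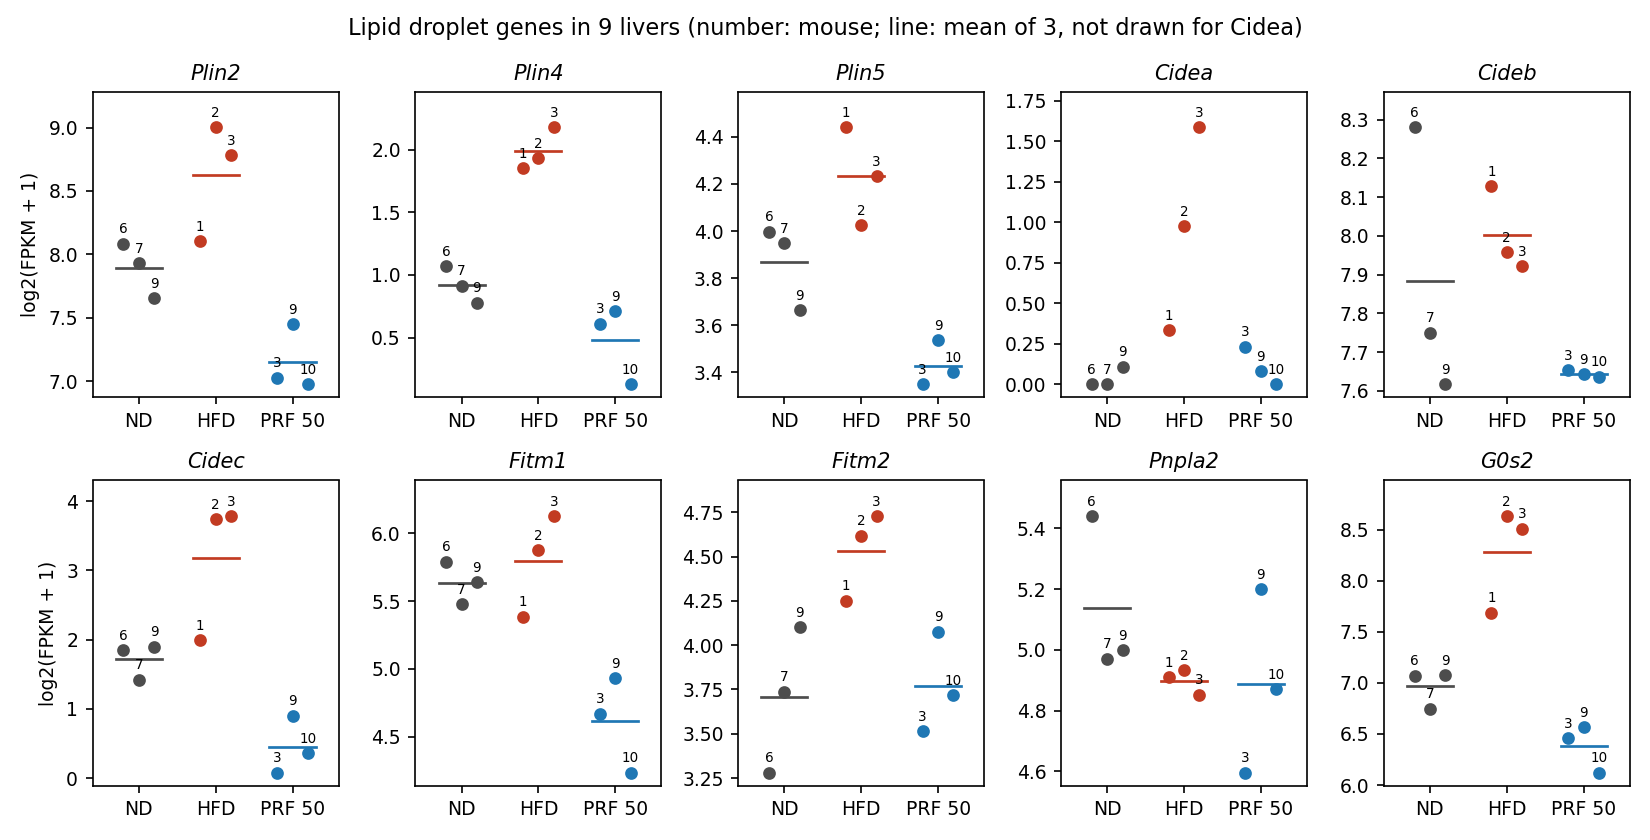
Log2(FPKM + 1) of the 10 genes (vertical axes) in the ND, HFD and PRF 50 groups (horizontal axes), with 1 point per mouse, marked with its number. Lines are means of 3 mice, not drawn for Cidea. HFD mouse 1 sits near the ND mice for Plin2 (8.10 vs. 8.09 in ND mouse 6) and Cidec (1.99 vs. 1.90 in ND mouse 9).

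The comparison of HFD with ND asks what the high-fat diet did, and that of PRF 50 with HFD asks what PRF did to mice on that diet. PRF 50 vs. ND compares treated mice with mice that never ate the diet. The first and the second share the HFD mice, and each shares its other group with the third, so the 3 are not independent. Each was tested with limma over all genes that averaged 1 FPKM or more in the 6 mice, with p adjusted over all of them, and a gene is said to have changed when its adjusted p was under 0.05. Fold changes are differences of mean log2(FPKM + 1) and understate those of genes near 1 FPKM or below.

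In HFD vs. ND, 1 of the 9 members tested, Plin4, had an adjusted p under 0.05 and higher values in HFD mice, which holds for 0.702% of all 9978 genes tested (1.33% in either direction). Plin4 reached the minimum level only through the HFD mice (means of 0.901 FPKM in ND and 2.98 FPKM in HFD), which selects for a difference, and with no minimum its adjusted p was 0.0528, so the count is no support for an effect of the diet on the members. At an unadjusted p under 0.05, limma gave 6 of the 9, against 15.1% of all genes. At an unadjusted p under 0.05 with a fold above 2, 3 members were higher (0.692% of all genes). The HFD values all lay above the ND values for 6 of the 9 tested, against 10.7% of all genes. The median log2 fold change was 0.74 over the members and -0.01 over all genes tested. Leaving out 1 mouse moved the count. It was 0 without ND mouse 7, HFD mouse 2 or HFD mouse 3, where the count over all genes went from 133 to 38, 40 and 35. Without HFD mouse 1 it was 4 (Plin2, Plin4, Cidec and G0s2), with 138 over all genes.

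In PRF 50 vs. HFD, 6 of the 9 members tested fell, namely Plin2, Plin4, Plin5, Cidec, Fitm1 and G0s2, where 2.16% of all 10084 genes tested fell and 3.59% changed in either direction. Plin4 and Cidec reached the minimum level only through the HFD mice (means of 2.98 and 9.38 FPKM), with 0.417 and 0.404 FPKM in PRF 50 mice. That selects for a difference, so these genes add no support in the counts of this comparison. At an unadjusted p under 0.05, limma gave 8 of the 9, against 20.2% of all genes. At an unadjusted p under 0.05 with a fold above 2, 5 members were lower (1.04% of all genes). The PRF 50 values all lay below the HFD values for 8 of the 9 tested, against 15.3% of all genes. The median log2 fold change was -1.18 over the members and -0.01 over all genes tested. The authors' own list of genes, picked on these samples, holds Plin2, Fitm1 and G0s2, so for these the direction is not independent of that choice. All members, Plin4, Plin5 and Cidec among them, were chosen with earlier results of these data known. None of these counts is therefore independent of the data. The count of 6 was 0 without HFD mouse 2 or HFD mouse 3, 1 (Plin4) without PRF 50 mouse 3 and 2 (Plin4 and G0s2) without PRF 50 mouse 10, where the count over all genes went from 362 to 27, 14, 40 and 167. With no minimum level it was 2 (Plin4 and G0s2), and with quantile normalization 4 (Plin4, Plin5, Cidec and G0s2). With a minimum of 10 FPKM it was 4 of 7 tested (Plin2, Plin5, Fitm1 and G0s2), Plin4 and Cidec not being tested there.

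In PRF 50 vs. ND, limma called 0 of the 8 members tested, where 0.458% of all 10051 genes tested changed, and gave 5 of the 8 at an unadjusted p under 0.05, against 12.5% of all genes. At an unadjusted p under 0.05 with a fold above 2, 2 members were lower (0.716% of all genes). The PRF 50 values all lay below the ND values for 5 of the 8, against 11.8% of all genes. The median log2 fold change was -0.51 over the members and -0.03 over all genes tested. The counts cover the members that passed the minimum level. Cidea passed it in no comparison, Plin4 did not pass it in PRF 50 vs. ND, and some members passed it only through the group in which they were high, which selects for a difference. These are Plin4 in HFD vs. ND and Plin4 and Cidec in PRF 50 vs. HFD, each through the HFD mice, and Cidec in PRF 50 vs. ND through the ND mice.

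**Figure D2:**
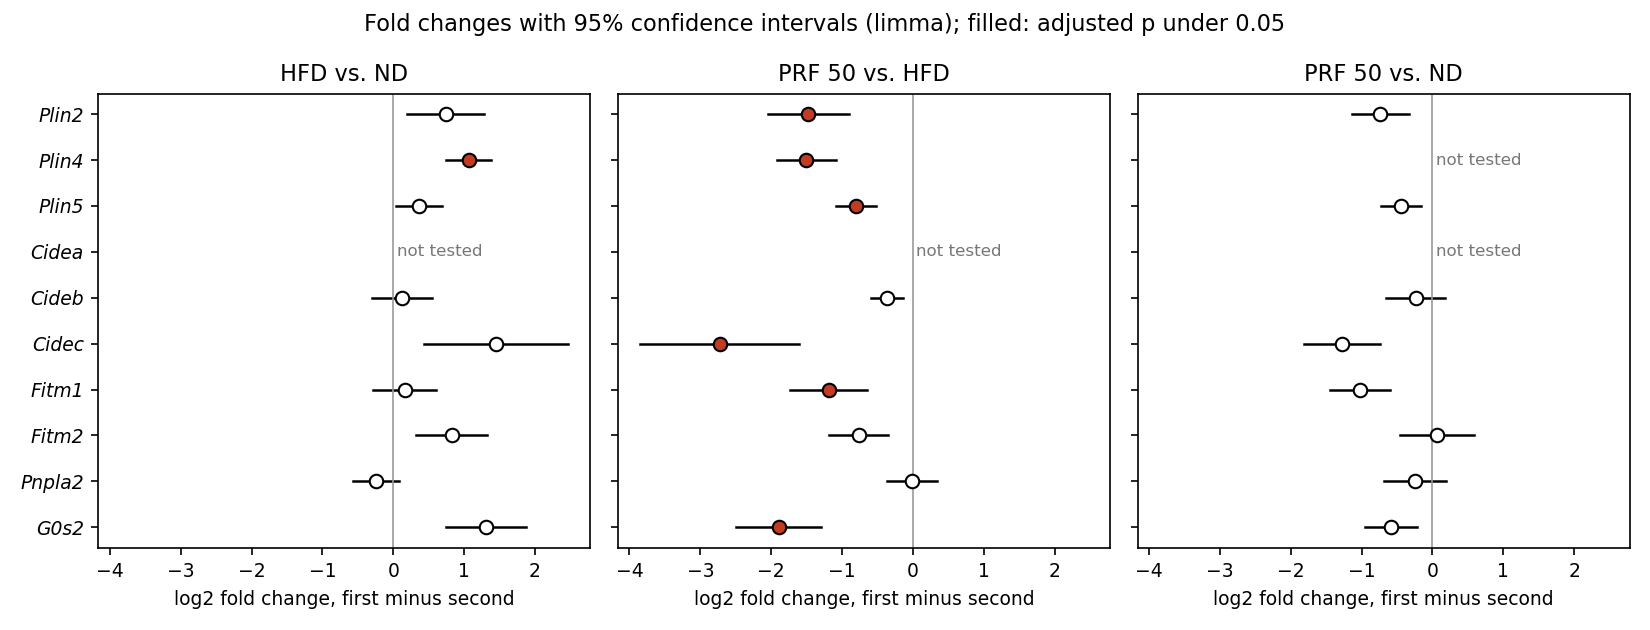
Log2 fold change (horizontal axis, with its 95% confidence interval) of each member (vertical axis) in the 3 comparisons, with 3 mice per group. Filled points have an adjusted p under 0.05, which holds for Plin4 in HFD vs. ND and for 6 genes in PRF 50 vs. HFD, where Cidec is farthest from 0 at -2.72.

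Among the perilipins, Plin2 (chr4:86648386-86670060 on GRCm38, minus strand), the main droplet coat of hepatocytes, had log2 values of 8.09, 7.93 and 7.65 in ND mice 6, 7 and 9, 8.10, 9.0 and 8.78 in HFD mice 1, 2 and 3, and 7.03, 7.45 and 6.98 in PRF 50 mice 3, 9 and 10. HFD mice 2 and 3 were the highest, HFD mouse 1 lay just above ND mouse 6, and all PRF 50 mice lay below all ND mice. Plin2 fell by 1.48 in PRF 50 vs. HFD (SE 0.24, adjusted p = 0.0294), with all PRF 50 mice below all HFD mice. In HFD vs. ND its log2 fold change was 0.74 (SE 0.24, adjusted p = 0.210), which did not pass, and that without HFD mouse 1 was 1.0 (adjusted p = 0.0498). Between PRF 50 and ND mice it was -0.74 (SE 0.17, adjusted p = 0.139). The adjusted p of the fall was 0.0892 without HFD mouse 2, 0.109 without HFD mouse 3, 0.0868 without PRF 50 mouse 3 and 0.0672 without PRF 50 mouse 10, and it was 0.056 with quantile normalization and 0.0669 with no minimum level.

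Plin4 (chr17:56100591-56109803, minus strand) encodes a perilipin with a long run of repeats that binds droplets in fat cells and muscle. Its log2 values were 1.07, 0.92 and 0.78 in ND, 1.85, 1.93 and 2.18 in HFD, and 0.61, 0.71 and 0.13 in PRF 50 mice, in the same order of mice. The 3 groups did not overlap, and all values were low. Its log2 fold change was 1.06 in HFD vs. ND (SE 0.14, adjusted p = 0.0146), where it was tested only because of its level in the HFD mice. Plin4 fell by 1.5 in PRF 50 vs. HFD (SE 0.18, adjusted p = 0.0148), again tested only because of its level in the HFD mice. With no minimum level that adjusted p was 0.0396. With a pseudocount of 0.1 the log2 fold changes were 1.63 and -2.78. HFD vs. ND had an adjusted p of 0.0683 without ND mouse 7, 0.0629 without HFD mouse 2, 0.071 without HFD mouse 3 and 0.0528 with no minimum level, and the fall had 0.058 without HFD mouse 2 and 0.0583 without HFD mouse 3. Without the minimum, its difference between PRF 50 and ND was -0.44 (adjusted p = 0.402).

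Plin5 (chr17:56111601-56117596, minus strand) is the neighbour of Plin4, with 1797 bases between them, and its protein holds droplets at mitochondria and binds ATGL and ABHD5. Its log2 values were 4.0, 3.95 and 3.66 in ND, 4.44, 4.02 and 4.23 in HFD, and 3.35, 3.54 and 3.40 in PRF 50 mice. The 3 groups did not overlap, and HFD mouse 1, low among the HFD mice for Plin2, was the highest of the 9 for Plin5. Plin5 fell by 0.80 in PRF 50 vs. HFD (SE 0.12, adjusted p = 0.0247). Its log2 fold changes were 0.36 in HFD vs. ND (SE 0.14, adjusted p = 0.294) and -0.44 in PRF 50 vs. ND (SE 0.12, adjusted p = 0.190), which did not pass. The fall had an adjusted p of 0.0529 without HFD mouse 2, 0.0878 without HFD mouse 3, 0.0778 without PRF 50 mouse 3, 0.0548 without PRF 50 mouse 10 and 0.0533 with no minimum level.

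Among the CIDE genes, Cidec (chr6:113424634-113435760, minus strand), also known as Fsp27, encodes a protein that lets droplets exchange and fuse their lipid, and is abundant in white fat and in fatty liver. The mice had log2 values of 1.85, 1.42 and 1.90 in ND, 1.99, 3.74 and 3.79 in HFD, and 0.08, 0.90 and 0.36 in PRF 50 mice. HFD mice 2 and 3 stood far above the rest, HFD mouse 1 was close to ND mouse 9, and the 3 groups did not overlap. On the FPKM scale HFD mice had 2.98, 12.4 and 12.8, and PRF 50 mice 0.0559, 0.871 and 0.286, the last being about 1, 24 and 5 times the step of the lowest value once depth is accounted for. Cidec fell by 2.72 in PRF 50 vs. HFD (SE 0.48, adjusted p = 0.0336), and this difference was -4.35 with a pseudocount of 0.1. It was tested there only because of its level in the HFD mice. In HFD vs. ND its log2 fold change was 1.45 (SE 0.44, adjusted p = 0.190), and without HFD mouse 1 it was 2.04 (adjusted p = 0.0049). For PRF 50 vs. ND it was -1.27 (SE 0.23, adjusted p = 0.0729), and -2.62 with a pseudocount of 0.1. The fall had an adjusted p of 0.102 without HFD mouse 2, 0.112 without HFD mouse 3, 0.0946 without PRF 50 mouse 3, 0.0742 without PRF 50 mouse 10 and 0.0749 with no minimum level.

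Cidea, best known from brown fat and from fatty liver, was listed at 0 in ND mice 6 and 7 and at 0.11 in ND mouse 9, at 0.33, 0.97 and 1.59 in HFD mice 1, 2 and 3, and at 0.23, 0.08 and 0 in PRF 50 mice 3, 9 and 10. The HFD mice were the 3 highest, and HFD mice 2 and 3 were again above HFD mouse 1. In steps of its lowest value, with depth accounted for, the values were about 0, 0 and 1 in ND, 3, 13 and 37 in HFD and 2, 1 and 0 in PRF 50 mice, within 0.13 of whole numbers, so no fold is given. With no minimum level, limma gave adjusted p-values of 0.294 in HFD vs. ND and 0.229 in PRF 50 vs. HFD, and neither passed.

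Cideb (chr14:55754050-55758458, minus strand) is the CIDE gene of normal liver, where its protein acts on droplets and on the lipid loading of lipoproteins. Its log2 values were 8.28, 7.75 and 7.62 in ND, 8.13, 7.96 and 7.92 in HFD, and 7.65, 7.64 and 7.64 in PRF 50 mice. All PRF 50 mice lay below all HFD mice, while the ND mice overlapped both groups. No comparison passed: the log2 fold changes were 0.12 in HFD vs. ND (adjusted p = 0.802), -0.36 in PRF 50 vs. HFD (adjusted p = 0.0962) and -0.24 in PRF 50 vs. ND (adjusted p = 0.608). In HFD vs. ND the sign turned without ND mouse 9, to -0.01, and the value was 0.32 without ND mouse 6, 0.05 without ND mouse 7 and 0.06 without HFD mouse 1. In PRF 50 vs. ND it was -0.04 without ND mouse 6, -0.37 without ND mouse 9 and -0.11 with quantile normalization. Whether Cidec and Cideb differed in their response was not tested.

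Of the FIT genes, Fitm1 (chr14:55575617-55576954, plus strand) is known mainly from muscle, and its FIT1 protein binds triglyceride. On the log2 scale it was at 5.79, 5.48 and 5.64 in ND, 5.39, 5.87 and 6.13 in HFD, and 4.67, 4.93 and 4.23 in PRF 50 mice. HFD mice overlapped ND mice, HFD mouse 1 being the lowest of these 6, and all PRF 50 mice lay below both. Fitm1 fell by 1.18 in PRF 50 vs. HFD (SE 0.23, adjusted p = 0.0414), and its log2 fold change was -1.02 in PRF 50 vs. ND (SE 0.18, adjusted p = 0.0706). In HFD vs. ND it was 0.16 (SE 0.19, adjusted p = 0.738) and, without HFD mouse 3, -0.01. The fall had an adjusted p of 0.136 without HFD mouse 2, 0.133 without HFD mouse 3, 0.106 without PRF 50 mouse 3, 0.0787 without PRF 50 mouse 10, 0.0664 with quantile normalization and 0.0836 with no minimum level. Skeletal muscle, where Fitm1 is abundant, had its 6 markers summed to between 0.789 and 2.01 FPKM in the 9 livers, with Mylpf the highest by its mean over the mice but not in HFD mouse 1 or PRF 50 mouse 10, where Tnnt3 was. Of its defining markers, Ckm was at 0 in the 3 ND mice, at 0.479 FPKM in HFD mouse 1, at 0 in HFD mice 2 and 3, and at 0.0692, 0.135 and 0.213 FPKM in PRF 50 mice, and Acta1 was between 0.0564 and 0.324 FPKM in the 9 mice.

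Fitm2 (chr2:163466379-163472629, minus strand) is expressed in most tissues, and its FIT2 protein is needed for droplets to bud from the ER. Its log2 values were 3.28, 3.74 and 4.10 in ND, 4.25, 4.62 and 4.73 in HFD, and 3.51, 4.08 and 3.72 in PRF 50 mice. All HFD mice lay above all others, and PRF 50 and ND mice overlapped. Its log2 fold changes were 0.83 in HFD vs. ND (SE 0.22, adjusted p = 0.138), -0.76 in PRF 50 vs. HFD (SE 0.18, adjusted p = 0.0668) and 0.06 in PRF 50 vs. ND (adjusted p = 0.929), and none passed. Without PRF 50 mouse 9, that in PRF 50 vs. HFD was -0.92 (adjusted p = 0.0465). The sign in PRF 50 vs. ND turned without ND mouse 6 (-0.15) and without PRF 50 mouse 9 (-0.09).

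Pnpla2 (chr7:141455198-141460743, plus strand), the gene of the lipase ATGL, had log2 values of 5.44, 4.97 and 5.0 in ND, 4.91, 4.93 and 4.85 in HFD, and 4.60, 5.20 and 4.87 in PRF 50 mice. All HFD mice lay just below all ND mice, and the PRF 50 mice spread over both groups. Its log2 fold changes were -0.24 in HFD vs. ND (95% interval -0.56 to 0.08, adjusted p = 0.481), -0.01 in PRF 50 vs. HFD (-0.36 to 0.34, adjusted p = 0.98), where the sign turned with quantile normalization (0.06), without HFD mouse 2 (0.01) and without PRF 50 mouse 3 (0.14), and -0.25 in PRF 50 vs. ND (adjusted p = 0.615). Without ND mouse 6, the highest, that in HFD vs. ND was -0.09 and that in PRF 50 vs. ND -0.10, and the latter was also -0.10 without PRF 50 mouse 3, -0.40 without PRF 50 mouse 9 and -0.16 with quantile normalization.

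G0s2 (chr1:193272161-193273217, minus strand) encodes the small protein that binds ATGL and stops it from cleaving triglyceride. Log2 values of G0s2 were 7.07, 6.75 and 7.08 in ND, 7.68, 8.63 and 8.51 in HFD, and 6.46, 6.56 and 6.12 in PRF 50 mice. The 3 groups did not overlap, and HFD mice 2 and 3 were the highest, with HFD mouse 1 between them and the ND mice. G0s2 fell by 1.89 in PRF 50 vs. HFD (SE 0.25, adjusted p = 0.0183). Its log2 fold change was 1.31 in HFD vs. ND (SE 0.25, adjusted p = 0.0521), which did not pass over all genes tested, and 1.61 without HFD mouse 1 (adjusted p = 0.00734). Between PRF 50 and ND mice it was -0.58 (SE 0.16, adjusted p = 0.176). The fall had an adjusted p of 0.0621 without HFD mouse 2, 0.0715 without HFD mouse 3 and 0.0568 without PRF 50 mouse 3. With all 9 mice in 1 fit, G0s2 had an adjusted p of 0.0315 in HFD vs. ND, and with a minimum of 10 FPKM it had 0.0413.

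The ratio of G0s2 to Pnpla2 in FPKM, inhibitor over lipase, was 3.14, 3.50 and 4.32 in ND mice, 7.04, 13.4 and 13.0 in HFD mice and 3.75, 2.62 and 2.42 in PRF 50 mice. All HFD mice lay above all others, with HFD mouse 1 nearest to them, and ND and PRF 50 mice overlapped. Its mean was 3.66 ± 0.605 (SD, n = 3) in ND, 11.2 ± 3.57 in HFD and 2.93 ± 0.718 in PRF 50 mice. This is a ratio of transcript levels, and lipase activity was not measured in these livers.

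**Figure D3:**
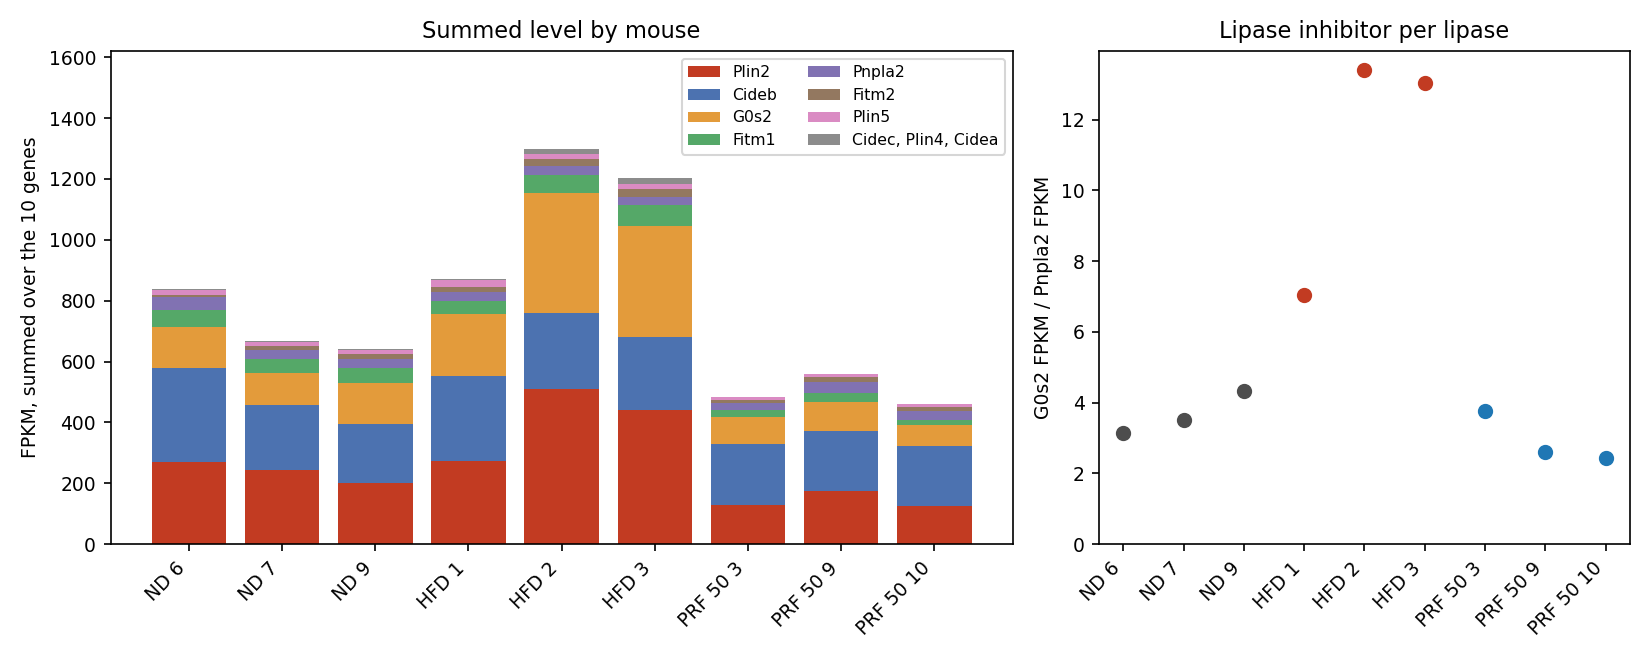
Left, summed FPKM of the 10 genes (vertical axis) in each mouse (horizontal axis), stacked by gene. Right, G0s2 over Pnpla2 in FPKM (vertical axis) by mouse, with HFD mice at 7.04 to 13.4 and the other 6 mice at 2.42 to 4.32.

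Exons of Plin4, Cideb, Fitm1 and Fitm2 overlap exons of a gene on the opposite strand in GENCODE M21, which are Hdgfl2, Nop9, Gm15932 and 2310001K24Rik. The library kit keeps the strand, but whether the counting used it is not stated, so reads of the neighbour may be part of these values. On the log2 scale Hdgfl2, listed as Hdgfrp2, lay between 3.05 and 3.67, above Plin4 in each of the 9 mice. Its own log2 fold changes were -0.32 in HFD vs. ND (adjusted p = 0.257) and 0.07 in PRF 50 vs. HFD (adjusted p = 0.787). Nop9 lay between 2.36 and 2.96 and 2310001K24Rik between 0 and 0.74, below Cideb and Fitm2 in each mouse, and Gm15932, the neighbour of Fitm1, could not be checked. G0s2 lies within the span of Lamb3 with no exon in common, and exons of Plin2, Plin5, Cidec and Pnpla2 overlap no other gene.

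Other genes of droplets were grouped into 3 lists, of which 31 of 33 genes were tested in each comparison. List A holds 14 other lipases, co-lipases and inhibitors (13 tested), list B holds 13 other perilipins and surface proteins (12 tested), and list C holds 6 genes of droplet formation at the ER (6 tested). From HFD to PRF 50, 5 of the 13 genes of list A fell (2.16% of all genes fell): Mgll, Abhd6, Lipa, Ces1d and Ces1f. At an unadjusted p under 0.05 limma gave 8 of the 13, against 20.2% of all genes. They include Ces3b, picked out after its values were seen, whose log2 fold change was 0.77, with all PRF 50 mice above all HFD mice, and which did not pass after adjustment. Abhd6 and Ces1d are in the authors' own list too, so their direction is not independent of that choice. The 3 lists as a whole were also drawn up with earlier results of these data known. The medians of the log2 fold changes were -0.57 in list A, -0.07 in list B and -0.28 in list C, against -0.01 over all genes. In lists B and C, limma called 0 genes, and 2 of 12 and 2 of 6 had an unadjusted p under 0.05, against 20.2% of all genes. The 5 calls were 0 without HFD mouse 2, HFD mouse 3 or PRF 50 mouse 3.

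Mgll, whose enzyme takes the last fatty acid off monoglycerides, had log2 values of 6.34, 5.75 and 5.77 in ND, 6.46, 6.59 and 6.61 in HFD, and 5.44, 5.85 and 5.51 in PRF 50 mice. The HFD mice were the 3 highest, and ND and PRF 50 mice overlapped. Mgll fell by 0.95 in PRF 50 vs. HFD (SE 0.12, adjusted p = 0.0170), and Abhd6, another monoglyceride lipase, fell by 1.16 (SE 0.14, adjusted p = 0.0150) with all PRF 50 mice (3.33 to 3.67) below all HFD mice (4.52 to 4.96). Lipa, the acid lipase of lysosomes, fell by 0.57 (SE 0.12, adjusted p = 0.0442), but was called in none of the 6 fits that left out 1 mouse. Ces1d, which encodes a triglyceride hydrolase of the liver ER, had 8.56, 8.51 and 8.69 in ND, 9.34, 8.60 and 8.68 in HFD, and 7.38, 7.45 and 7.46 in PRF 50 mice. All PRF 50 mice lay below the 6 others, and HFD and ND mice overlapped. Ces1d fell by 1.44 in PRF 50 vs. HFD (SE 0.19, adjusted p = 0.0185) and by 1.16 in PRF 50 vs. ND (SE 0.11, adjusted p = 0.0116), and its relative Ces1f fell by 0.90 (SE 0.13, adjusted p = 0.0235) and by 1.09 (SE 0.12, adjusted p = 0.0152). The Ces1 genes are close copies of each other, and reads may be shared between them.

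Ces1d and Ces1f were the 2 genes of the 3 lists that fell in PRF 50 vs. ND, where 0.458% of all genes changed in either direction. Both calls were lost (0 genes) without ND mouse 7 or PRF 50 mouse 3, where the count over all genes went from 46 to 4 and 8. In that comparison 4 of the 13 genes of list A had an unadjusted p under 0.05, against 12.5% of all genes. For lists B and C limma called 0 genes, with 0 of 12 and 2 of 6 at that unadjusted p. The medians were -0.23, -0.04 and -0.31 in lists A, B and C. In HFD vs. ND, limma called 0 of the 31 genes, against 1.33% of all genes. It gave 8 at an unadjusted p under 0.05 (15.1% of all genes), and the medians were 0.29, 0.03 and -0.10. Without ND mouse 6, 1 gene (Mgll) was called there, where the count over all genes went from 133 to 62.

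Of the perilipins outside the 10 genes, Plin1, the coat of fat-cell droplets, was listed at 0 in all 9 mice. Plin3, a widely expressed perilipin, lay between 4.22 and 4.75 in the 9 mice with overlapping groups, and its log2 fold change was -0.06 in PRF 50 vs. HFD (95% interval -0.33 to 0.20, adjusted p = 0.811). Lipe, the gene of hormone-sensitive lipase, lay between 2.50 and 3.49 (log2 fold change -0.30, adjusted p = 0.586), and for Abhd5, the co-activator of ATGL, it was -0.20 (adjusted p = 0.201). Hilpda, whose small protein also inhibits ATGL, had 0.82, 1.47 and 1.5 in ND, 1.41, 2.28 and 1.85 in HFD, and 1.5, 1.31 and 1.53 in PRF 50 mice. Its groups overlapped, with log2 fold changes of 0.58 in HFD vs. ND (adjusted p = 0.343) and -0.40 in PRF 50 vs. HFD (adjusted p = 0.348). For Hsd17b13, an abundant droplet protein of hepatocytes, PRF 50 minus HFD was -0.23 on the log2 scale (adjusted p = 0.701). Pnpla3, a relative of Pnpla2, was not tested because of its low level, with its highest value, 0.66, in ND mouse 9.

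**Figure D4:**
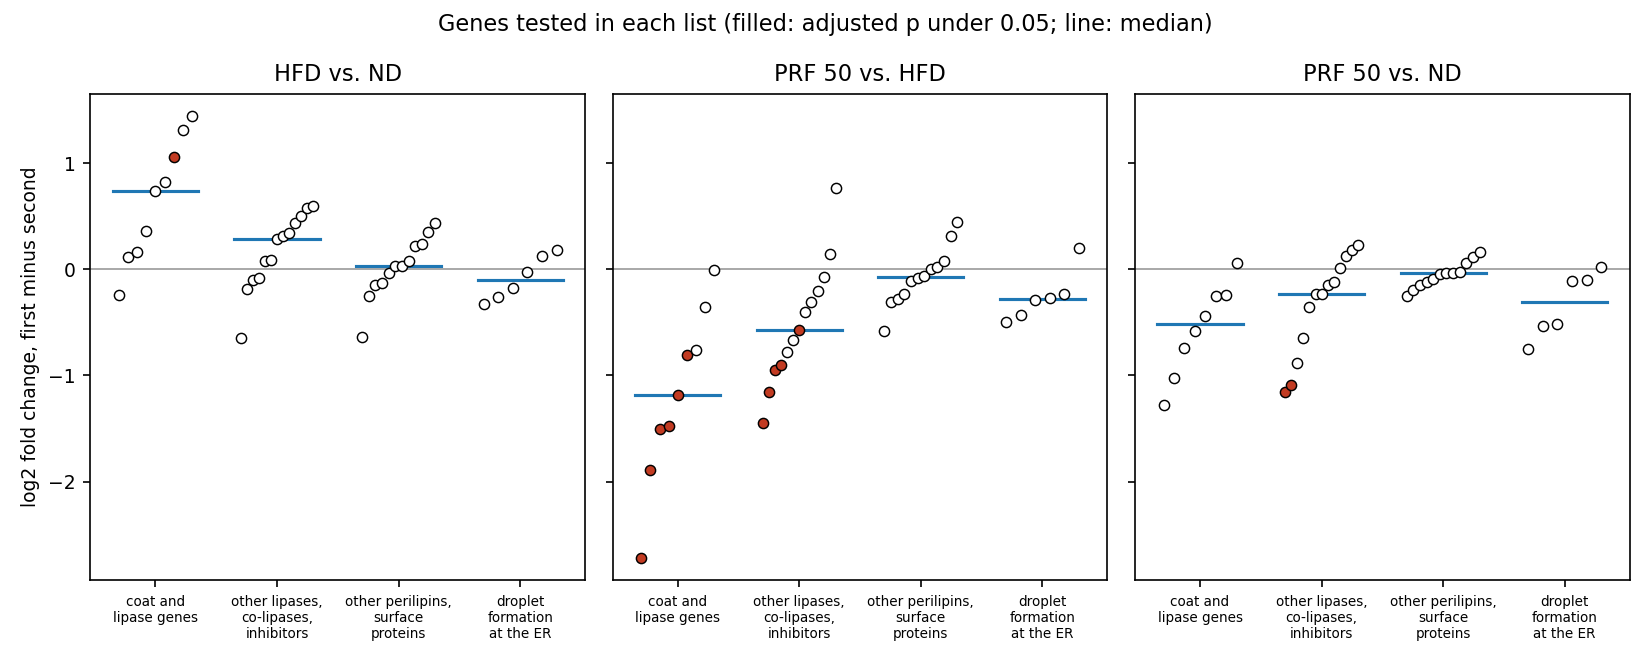
Log2 fold change (vertical axis) of each tested gene of the 10 members and of lists A, B and C (horizontal axis) in the 3 comparisons, with filled points for an adjusted p under 0.05 and lines for medians. In PRF 50 vs. HFD the medians are -1.18, -0.57, -0.07 and -0.28.

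Bulk liver RNA mixes cell types, and fewer cells of a type cannot be told apart from less RNA per cell. Several members are abundant in fat cells. Adipoq, the defining marker of adipocytes, was listed at 0 in 7 of the 9 mice, and at 0.277 FPKM in HFD mouse 2 and 0.101 FPKM in HFD mouse 3, and Lep and Plin1 were at 0 in all 9. The 6 adipocyte markers summed to 8.59, 6.62 and 7.33 FPKM in ND, 5.58, 15.9 and 23.8 FPKM in HFD, and 6.37, 8.81 and 4.66 FPKM in PRF 50 mice, Lipe having the highest mean over the mice. In the HFD mice Cfd made up 0.583, 6.29 and 13.4 FPKM of this, and in HFD mouse 3 it was above Lipe (10.3 FPKM). Cfd was at 0.654, 1.01 and 1.58 FPKM in ND and at 0.211, 0.609 and 0 FPKM in PRF 50 mice. Its log2 fold change in PRF 50 vs. HFD was -2.14 (adjusted p = 0.155), with overlapping groups. It passed the minimum level there only through the HFD mice. Retn was at 0.592 FPKM in ND mouse 7 and at 0 in the other 8 mice. HFD mice 2 and 3, the highest for the sum and for Adipoq, Cfd and Lipe, were also the highest for Cidea, Cidec, Plin2, Plin4, Fitm1, Fitm2 and G0s2. They were not for Plin5, Cideb and Pnpla2, and the part of these cells in the results was not tested.

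Markers of macrophages, among them Clec4f, which defines the Kupffer cells resident in the liver, differed between the groups in which the members fell. The 7 of 7 markers found summed to 42.9, 82.1 and 112 FPKM in ND, 53.3, 88.8 and 95.6 FPKM in HFD, and 323, 185 and 222 FPKM in PRF 50 mice, with Cd5l the highest by its mean. All PRF 50 mice lay above the 6 others. Tested in PRF 50 vs. HFD, 6 of the 7 rose (1.43% of all genes rose), Clec4f by 1.38 (SE 0.25, adjusted p = 0.0336), and Marco did not pass (adjusted p = 0.135). In PRF 50 vs. ND limma called 0 of the 7 (adjusted p from 0.0602 to 0.216), against 0.458% of all genes. At an unadjusted p under 0.05 it gave 7 (12.5% of all genes). Clec4f, Vsig4, Cd5l and Marco are in the authors' own list, picked on these samples, and are not independent of that choice. The part of these cells in the lower values of the members was not tested. Stellate cells, the vitamin A cells of the liver that also hold droplets, had their 7 markers summed to 90.2 to 140 FPKM in ND, 115 to 145 FPKM in HFD and 107 to 184 FPKM in PRF 50 mice, with Dcn the highest by its mean. Among them limma called 0 of the 7 in PRF 50 vs. HFD (3.59% of all genes changed), with 1 at an unadjusted p under 0.05 (20.2% of all genes). That 1 was Col1a1, at -0.46 (adjusted p = 0.162), with all PRF 50 mice below all HFD mice. In HFD vs. ND Col1a1 was at 0.77 (adjusted p = 0.0798). It passed the minimum level in both comparisons only through the HFD mice, which selects for a difference. Its means were 0.571 FPKM in ND, 1.72 FPKM in HFD and 0.948 FPKM in PRF 50 mice. Of the 7, 5 had a log2 fold change above 0 in PRF 50 vs. HFD. For the defining marker Lrat PRF 50 minus HFD was 0.19 on the log2 scale (adjusted p = 0.779).

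Over the 9 mice, Pearson's r of the log2 values ran from -0.31 (Cidea and Pnpla2) to 0.97 (Plin2 and Cidec) over the 45 pairs of members, with a median of 0.75 and 4 pairs below 0. Cidec and G0s2 had 0.97, Pnpla2 and G0s2 -0.04, and Cideb and Fitm2 0.02. With the group means taken out, r ran from -0.82 (Cideb and Fitm2) to 0.90 (Cidec and G0s2), with a median of 0.37 and 12 pairs below 0. These points come from the same 9 libraries and share their group differences and normalization, so r is a description only.

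Among 10039 genes averaging 1 FPKM or more, with the members themselves left out of the ranking, the 5 with the highest r to Plin2 (n = 9) were Rtfdc1 (0.97), Cyp2c38 (0.97), Ywhag (0.97), Paqr7 (0.97) and Chkb (0.97). Outside the members, Cidec was most like Cmas (0.98), Chkb (0.98), Cd36 (0.98), Hsd17b12 (0.97) and Plekha8 (0.97). For G0s2 they were Rassf3 (0.98), Cd36 (0.98), Chkb (0.98), Vnn1 (0.97) and Lace1 (0.97). Fitm1, ranked in the same way, was most like Pparg (0.97), Clstn3 (0.96), 4931406C07Rik (0.96), Slc25a10 (0.96) and Entpd5 (0.95). Cd36 encodes a fatty-acid transporter, and its mean log2 values were 4.47 in ND, 5.99 in HFD and 3.68 in PRF 50 mice. Pparg encodes a nuclear receptor of fat storage, with means of 3.57, 3.70 and 2.45. With the group means taken out, r of the genes named here ran from 0.78 (Fitm1 and Entpd5) to 0.96 (G0s2 and Chkb). Cyp2c38, Paqr7, Cd36 and Vnn1 are in the authors' own list, picked on these samples, and are not independent of that choice. High values of r are found by searching many genes over few mice, and no p is given for them.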

How the data were processed

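Reads were trimmed by the authors and mapped to mm10 with TopHat, and they estimated FPKM with Cufflinks and applied a geometric normalization, stated as done with EdgeR. The deposited values were read as log2(FPKM + 1), and the pseudocount of 1 is inferred from a lowest value of 0. Groups were compared with limma 3.58.1 in R 4.3.3 (lmFit, eBayes with a trend) on the 6 mice of each pair of groups, over genes averaging 1 FPKM or more, with Benjamini-Hochberg adjustment over all genes tested. Every p is from limma. Tables, motif searches and plots were made in Python 3.11.15 with numpy 2.4.6, pandas 2.3.3 and matplotlib 3.10.9. Positions are from GENCODE M21 on GRCm38. The members and lists were chosen with earlier results of these data known. Genes named are the 10 members, called genes of lists A to C with 8 set ones, the 5 genes most like Plin2, Cidec, G0s2 and Fitm1, and cell type markers. Spart was listed as Spg20. Ces3b, Rnu6, Snord49a and genes overlapping a member's exons were named after the values were seen.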

Additional observations from a re-analysis of the deposited data

How the results depend on the processing

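The alternatives were quantile normalization, scaling by the median of ratios, no minimum level or 10 FPKM as minimum, a pseudocount of 0.1, eBayes with no trend, all 9 mice in 1 fit, and leaving out single mice. Of 333 recomputed fold changes of members, 289 kept their direction and side of the threshold, 31 lost a call, 6 gained one and 7 changed sign, and none of the 7 called results changed sign under these alternatives. Only the 7 called results could lose a call, so the 31 are not to be read against the 333. In PRF 50 vs. HFD the call was lost in 6 alternatives and kept in 7 for Plin2 and for Fitm1. It was lost in 5 and kept in 8 for Plin5, and lost in 5 and kept in 7 for Cidec. For G0s2 it was lost in 3 and kept in 10, and for Plin4 in 2 and 10. In HFD vs. ND, Plin4 lost it in 4 and kept it in 8. Of 78 recomputed counts, 61 stayed within 1.5 times the reported count and 17 did not. The 61 include counts of 0 that stayed at 0, which show no stability of a call. They also include a count of 1 in HFD vs. ND with 10 FPKM as minimum, where the gene was G0s2 and not Plin4. The count of members called in HFD vs. ND (1) was 2 with all 9 mice in 1 fit and 0 with no minimum, and in PRF 50 vs. HFD (6) it was 2 with no minimum. Leaving out 1 mouse gave 0 to 4 members in HFD vs. ND, 0 to 7 in PRF 50 vs. HFD and 0 to 0 in PRF 50 vs. ND, and 0 to 1, 0 to 5 and 0 to 2 genes of lists A to C, with fewer mice in each fit. Signs changed in HFD vs. ND for Cideb without ND mouse 9 (-0.01; -0.01 to 0.32 over the mice left out) and Fitm1 without HFD mouse 3 (-0.01; -0.01 to 0.37), in PRF 50 vs. HFD for Pnpla2 with quantile normalization (0.06), without HFD mouse 2 (0.01) and without PRF 50 mouse 3 (0.14; -0.17 to 0.14), and in PRF 50 vs. ND for Fitm2 without ND mouse 6 (-0.15) and without PRF 50 mouse 9 (-0.09; -0.15 to 0.26). The cause was not tested. No paired analysis was possible, because mice are not paired between groups. Cidea, Plin4 in the ND and PRF 50 mice, and Cidec in the PRF 50 mice had low values, where depth may limit precision. Their counting error is unknown.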
